A study of Mus musculus with 6 samples.

Results

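The nuclear genes for the subunits of oxidative phosphorylation were followed in mouse liver, with and without the active form of the transcription factor CREB-H. They were chosen by gene symbol alone: every probe set with a single platform symbol of the Nduf, Sdh, Uqcr, Cox4 to Cox8 or Atp5 series was taken, and the probe set with the highest mean over all 6 arrays stood for its gene. This gave 80 genes of the 22180 that could be named in the same way, with 33 in complex I, 4 in complex II, 8 in complex III, 17 in complex IV and 18 in complex V. Of the 80, 76 encode structural subunits. The other 4 are Ndufa4l2, a paralogue of Ndufa4, Cox7a2l, a factor that joins respiratory complexes into larger assemblies, and the pseudogenes Uqcrh-ps1 and Atp5c1-ps.

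All 6 mice were CREB-H knockouts that carry the allele Creb3l3tm1.1Sad/J. They were 8 weeks old and ate a normal diet. Each received by intraperitoneal injection a liver-targeted adeno-associated virus, which encoded green fluorescent protein in the control group (AAV-GFP, n = 3) or the active form of CREB-H in the test group (AAV-CREB-H-ΔTC, n = 3). Livers were taken 2 weeks later, and total RNA of each liver was hybridised to 1 array. The titles list the samples of a group as biological replicates. The labels do not name the promoter that drives the vector, and mice with an intact Creb3l3 gene were not analysed here. Whole liver was measured, so fewer cells of a type and less RNA per cell cannot be told apart. Replicate 3 of each group stood apart in sex-linked signal. The mean of Y-linked genes was 7.83 and 7.67 on these arrays and 3.15 to 3.39 on the other 4. Xist, the other sex-linked reading, was 4.43 and 3.75 on these arrays and 10.83 to 11.35 on the other 4. The labels give no sex.

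Oxidative phosphorylation takes place in the inner mitochondrial membrane. Complexes I and II pass electrons from NADH and succinate to ubiquinone, complex III passes them on to cytochrome c, complex IV reduces oxygen, and complex V uses the proton gradient that complexes I, III and IV build to make ATP. Most subunits are encoded in the nucleus and a few in mitochondrial DNA, and the transcription factors NRF1 and GABPA and the PGC-1 coactivators are known for acting on many of the nuclear genes together. CREB-H is an endoplasmic reticulum membrane protein whose cleaved part enters the nucleus. It is known in liver for fasting metabolism, triglycerides and apolipoproteins, so the comparison asks whether the respiratory chain genes are part of the response to the returned factor.

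The supplied gene was examined first. The probe set of Creb3l3 read 6.55, 5.93 and 6.40 on the log2 scale in the AAV-GFP livers and 6.73, 7.25 and 7.58 in the AAV-CREB-H-ΔTC livers. The groups did not overlap, and the difference was 0.89 (SE 0.25, limma adjusted p = 0.647 over all 41345 probe sets). Of all probe sets 2 passed an adjusted p of 0.05, which is 0.00484% of those tested, and neither belongs to a respiratory subunit. They were Apoa4, an apolipoprotein of triglyceride-rich particles, which rose by 3.70 on the log2 scale, and Asic5, an ion channel subunit, which fell by 1.86. When any 1 array was left out other than AAV-CREB-H-ΔTC replicate 2, 0 probe sets passed. Every difference given here is the mean log2 signal of the AAV-CREB-H-ΔTC group minus that of the AAV-GFP group, SE is its standard error from limma, and p-values are two-sided with Benjamini-Hochberg adjustment.

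No subunit gene passed the test, in either direction. The lowest adjusted p among the 80 was 0.673, for Ndufb3. At an unadjusted p below 0.05, 0 subunit genes were higher and 2 were lower (Ndufb3 and Atp5c1-ps), whereas 3.29% of all genes were higher and 2.43% lower by the same criterion. The count of 2 became 1 without AAV-GFP replicate 1 or AAV-CREB-H-ΔTC replicate 1, and 0 without AAV-GFP replicate 3. The AAV-CREB-H-ΔTC values lay above all AAV-GFP values for 2 subunit genes, Sdhc and Sdhd, and below them for 5: Ndufb3, Ndufa12, Ndufb5, Cox4i1 and Atp5k. The background for such separation was 6.25% of all genes upwards and 6.01% downwards, so the 2 (of 80) upwards were fewer than it and the 5 downwards close to it. With 3 arrays against 3, an exact permutation test of a single gene cannot go below p = 0.1.

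The subunit genes lay close to no difference, with a narrower spread than that of all genes. Their log2 differences had a median of -0.003, with 38 above and 42 below 0, against a median of 0.003 over all 22180 genes. The quartiles were -0.07 and 0.05 for the subunits and -0.10 and 0.11 for all genes. Standard deviations across genes were 0.12 and 0.22. Of the 80 genes, 74 (92.5%) differed by less than 0.2 in size, compared with 76.7% of all genes and 73.3% of the genes in the brighter 50% of the probe sets, to which 71 of the 80 subunit genes belong. The range ran from -0.41 for Ndufb3 to 0.19 for Sdhd. For scale, 1116 genes (5.03% of all) had a difference at least as large in size as that of Ndufb3.

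**Figure D1:**
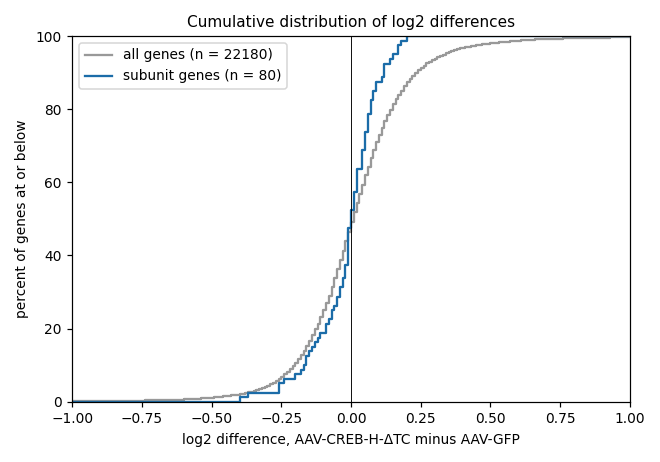
Cumulative distribution of log2 differences (AAV-CREB-H-ΔTC minus AAV-GFP, horizontal axis) for the 80 subunit genes and for all 22180 genes, as the percent of genes at or below each value; differences beyond 1 in size are off the plot. The subunit curve climbs more steeply around 0 and ends at 0.19, with quartiles of -0.07 and 0.05 against -0.10 and 0.11 for all genes.

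The intervals, each for a single gene and not adjusted for the number of genes, show what size of change these arrays could have missed. The 95% interval of the difference lay wholly within 0.5 of 0 on either side, a 1.41-fold change, for 71 of the 80 genes (88.8%), against 63.4% of all genes and 60.2% of the brighter 50%. By complex these were 28 of 33 genes in complex I, 4 of 4 in complex II, 8 of 8 in complex III, 15 of 17 in complex IV and 16 of 18 in complex V. For all 80 genes it lay within 1.0, a 2.0-fold change, and the outermost limits were -0.75 for Atp5c1-ps and 0.62 for Atp5g1. The median SE was 0.112 for the subunits, with a range of 0.09 to 0.20, and 0.134 for all genes. Replicates of a group were also closer to each other: the median within-group SD was 0.10 in both groups for the subunits, and 0.15 (AAV-GFP) and 0.14 (AAV-CREB-H-ΔTC) for all genes.

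**Figure D2:**
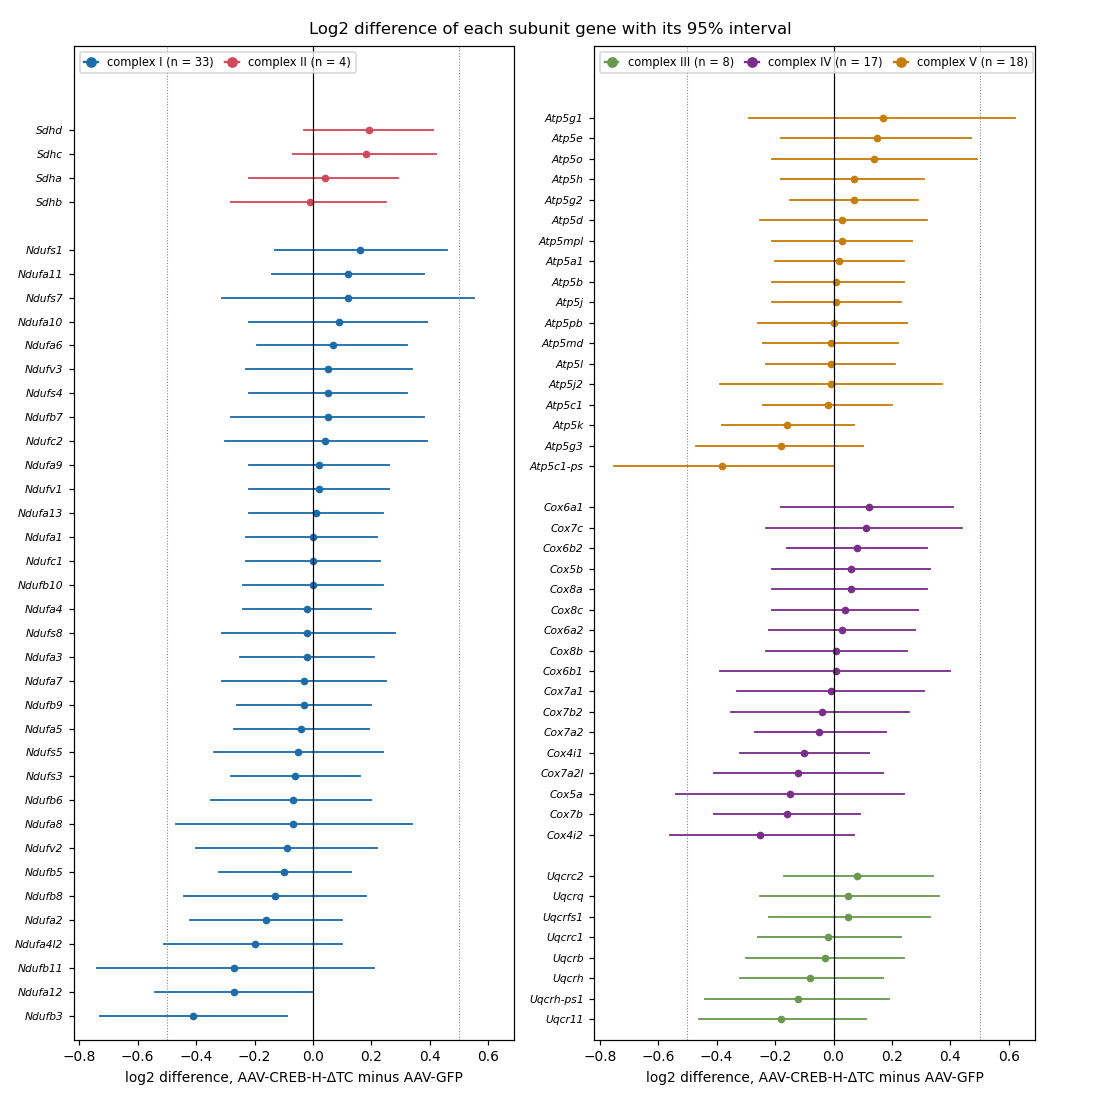
Log2 difference (AAV-CREB-H-ΔTC minus AAV-GFP, horizontal axis) of each of the 80 subunit genes, by complex, with its 95% interval from limma (n = 3 arrays per group); dotted lines mark 0.5 in either direction. The points spread on both sides of 0 in each complex, from -0.41 (Ndufb3) to 0.19 (Sdhd), and 71 of the 80 intervals stay between the dotted lines.

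CREB-H belongs to the bZIP family, whose members are known for binding the cAMP response element. The factors of mitochondrial biogenesis have short motifs of their own, so the letters around the starts of the subunit genes were searched. Each window searched held the 250 bases before the annotated start and a shorter stretch after it, and the shares given here count both parts. Windows were available for 64 of the 80 genes (RefSeq, build GRCm38.p6) and for 27025 genes in all. Some genes had several windows, with 69 for the 64 subunit genes, and a gene was counted if any of its windows matched. The full element TGACGTCA, which reads the same on both strands, occurred in 3 subunit genes (4.69%, against 2.03% of all genes): Ndufa10 and Ndufa11 of the complex I membrane arm, and Uqcrfs1 of complex III. Their log2 differences were 0.09 (SE 0.13), 0.12 (SE 0.11) and 0.05 (SE 0.12), and the groups of each gene overlapped. The 3 windows are shown because they hold the element for which bZIP factors are known. Those of Ndufb3 and Ndufa12, the structural subunits with the lowest p, and of Sdhd, the subunit with the highest difference, follow for comparison. Only the 250 bases before the start are printed, for a single window per gene. Letters run 5′ to 3′ along the strand of the gene, and the capitals mark the matches named after them.
Ndufa10 (chr1:92473759-92474008, minus strand): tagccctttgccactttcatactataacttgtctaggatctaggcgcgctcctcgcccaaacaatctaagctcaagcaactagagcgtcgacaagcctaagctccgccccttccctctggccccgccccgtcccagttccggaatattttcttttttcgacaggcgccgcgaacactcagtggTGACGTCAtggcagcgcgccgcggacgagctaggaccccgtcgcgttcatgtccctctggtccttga
Ndufa11 (chr17:56717512-56717761, plus strand): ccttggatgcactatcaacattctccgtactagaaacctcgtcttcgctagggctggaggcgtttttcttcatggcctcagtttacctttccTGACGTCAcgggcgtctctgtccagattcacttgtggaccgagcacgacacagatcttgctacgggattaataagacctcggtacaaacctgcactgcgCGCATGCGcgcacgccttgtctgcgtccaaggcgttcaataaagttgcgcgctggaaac
Uqcrfs1 (chr13:30545317-30545566, minus strand): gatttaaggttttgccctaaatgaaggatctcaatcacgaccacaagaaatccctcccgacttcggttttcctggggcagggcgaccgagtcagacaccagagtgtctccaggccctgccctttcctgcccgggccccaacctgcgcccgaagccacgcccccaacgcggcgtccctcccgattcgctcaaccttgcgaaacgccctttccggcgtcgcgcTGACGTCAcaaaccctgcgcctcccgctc
Ndufb3 (chr1:58586147-58586396, plus strand): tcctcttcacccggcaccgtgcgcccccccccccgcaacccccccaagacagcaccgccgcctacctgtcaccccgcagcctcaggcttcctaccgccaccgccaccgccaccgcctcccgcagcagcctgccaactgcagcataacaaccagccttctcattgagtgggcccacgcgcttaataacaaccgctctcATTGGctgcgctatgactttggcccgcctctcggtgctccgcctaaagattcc
Ndufa12 (chr10:94198785-94199034, plus strand): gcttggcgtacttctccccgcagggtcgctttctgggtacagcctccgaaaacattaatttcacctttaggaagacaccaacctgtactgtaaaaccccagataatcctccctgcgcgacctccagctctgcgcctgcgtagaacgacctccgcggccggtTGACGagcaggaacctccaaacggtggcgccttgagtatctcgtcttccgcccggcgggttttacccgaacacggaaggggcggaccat
Sdhd (chr9:50603850-50604099, minus strand): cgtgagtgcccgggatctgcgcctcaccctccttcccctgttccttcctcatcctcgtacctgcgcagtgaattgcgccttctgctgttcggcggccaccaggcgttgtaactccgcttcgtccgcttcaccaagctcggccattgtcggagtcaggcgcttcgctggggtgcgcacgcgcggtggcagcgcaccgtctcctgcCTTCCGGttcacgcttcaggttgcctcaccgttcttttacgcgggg
In Ndufa10, Ndufa11 and Uqcrfs1 the element begins 67, 158 and 29 bases before the start, and Ndufa11 also holds the NRF1 core CGCATGCG at 59 bases. Ndufb3 has none of the CREB, NRF1, ETS or YY1 letters in its window, and its capitals mark ATTGG, the CCAAT box on the other strand, 53 bases before the start. Ndufa12 holds the short element TGACG at 89 bases, and Sdhd the ETS core CTTCCGG, the type that GABPA binds, at 46 bases.

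The 3 genes with the full element had a median difference of 0.09, and the other motifs had medians of -0.01 to 0.02. The short element (TGACG or CGTCA, which the full element also contains) occurred in 24 of the 64 subunit genes (37.5%, against 23.0% of all genes), with log2 differences from -0.27 to 0.17 and a median of 0.00. The NRF1 core CGCATGCG occurred in 9 subunit genes (14.1% against 2.07%), with a median of -0.01 and a range of -0.18 to 0.12. ETS letters (CCGGAAG or CTTCCGG) occurred in 17 (26.6% against 9.93%), with a median of -0.01 and a range of -0.18 to 0.19. The YY1 core (AAGATGGCG or CGCCATCTT) occurred in 6 (9.38% against 1.64%), with a median of 0.02. The CCAAT box (CCAAT or ATTGG) was as frequent in the subunit genes, at 40.6%, as in all genes, at 41.1%. Both strands were searched. A match is a description of the letters and not evidence of a bound site.

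Complex I, the NADH dehydrogenase, had 13 genes above and 20 below 0 and a median of -0.017. Ndufb3, an accessory subunit of the membrane arm, read 7.65, 7.58 and 7.89 in the AAV-GFP livers and 7.13, 7.42 and 7.35 in the AAV-CREB-H-ΔTC livers. The groups did not overlap, with AAV-GFP replicate 2 and AAV-CREB-H-ΔTC replicate 2 nearest to each other. The difference was -0.41 (SE 0.13, 95% interval -0.73 to -0.09), a ratio of 0.753, and it did not pass over all probe sets (limma adjusted p = 0.673). Ndufa12, an accessory subunit of the NADH-oxidising arm, read 8.88, 8.76 and 8.88 against 8.73, 8.56 and 8.43. All 3 AAV-CREB-H-ΔTC arrays were below all 3 controls, with a difference of -0.27 (SE 0.11, limma adjusted p = 0.732). A dimmer second probe set of Ndufa12 gave -0.30 with overlapping groups. Ndufb5, also of the membrane arm, read 8.23, 8.31 and 8.22 against 8.20, 8.14 and 8.13, so its groups separated by a narrow margin (-0.10, SE 0.09).

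Differences between the modules of complex I were not tested. The NADH-oxidising module (9 genes) had a median of 0.016, the ubiquinone-reducing module (4 genes) -0.028 and the membrane arm (18 genes) -0.012. Ndufv1, which holds the site of NADH oxidation, differed by 0.02 (SE 0.10). Ndufs1, the largest iron-sulphur subunit, differed by 0.16 (SE 0.12), the highest value in the complex, and the small accessory subunit Ndufa2 by -0.16 (SE 0.11). Ndufs7, the subunit next to ubiquinone, read 9.90, 10.01 and 10.52 against 10.21, 10.15 and 10.41. Its high control array gave it a wide interval (-0.31 to 0.55), with a difference of 0.12. Ndufb11, a membrane arm subunit, had the largest SE of the complex, and its difference of -0.27 (SE 0.20) came with overlapping groups. Ndufa4, named for complex I but found in complex IV structures, differed by -0.02 (SE 0.09), and its paralogue Ndufa4l2, which hypoxia is known to induce, by -0.20 (SE 0.13).

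Complex II, succinate dehydrogenase, also a TCA cycle enzyme, had the highest median of the complexes, 0.106 over its 4 genes. The higher values belonged to the membrane anchors, Sdhc and Sdhd, which hold the haem and the ubiquinone site. Sdhd read 10.19, 10.18 and 10.20 in the AAV-GFP livers and 10.41, 10.31 and 10.41 in the AAV-CREB-H-ΔTC livers. The controls were almost level with each other, and all 3 test livers stood above them. The difference was 0.19 (SE 0.09, 95% interval -0.03 to 0.41), a ratio of 1.14 (limma adjusted p = 0.776). Sdhc read 9.73, 9.80 and 9.67 against 9.97, 9.81 and 9.96. Its groups separated by the narrow gap between AAV-GFP replicate 2 and AAV-CREB-H-ΔTC replicate 2, with a difference of 0.18 (SE 0.10, limma adjusted p = 0.814).

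The catalytic subunits of complex II did not share this separation. Sdha, the flavoprotein that oxidises succinate, read 11.49, 11.46 and 11.36 against 11.60, 11.45 and 11.37, a difference of 0.04 (SE 0.11). Sdhb, the iron-sulphur subunit, read 9.45, 9.52 and 9.38 against 9.55, 9.28 and 9.48, a difference of -0.01 (SE 0.11). Their groups overlapped, and whether the anchors differ from the catalytic subunits was not tested. AAV-CREB-H-ΔTC replicate 1 was the highest array for all 4 genes. The 4 assembly factors of complex II had a median of 0.098, with 3 above 0 and no separated group. Sdhaf1, which guards the iron-sulphur subunit, differed by 0.22 (SE 0.15) and Sdhaf4, which acts on the flavoprotein, by 0.19 (SE 0.12).

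**Figure D3:**
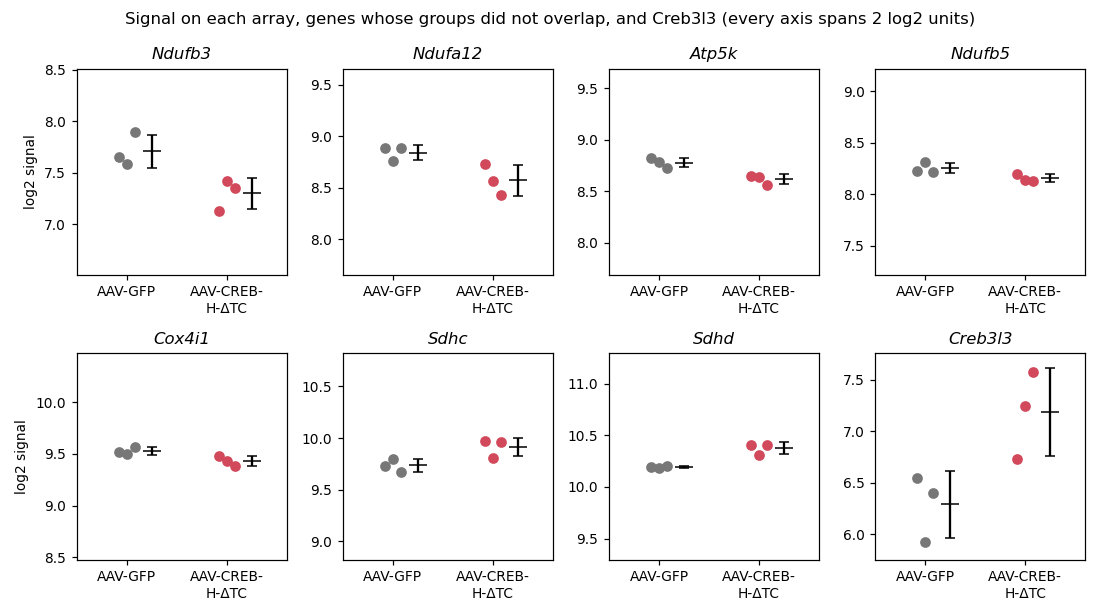
Log2 signal of each array (points; n = 3 per group) with the group mean and SD (bars) for the 7 subunit genes whose groups did not overlap and for Creb3l3; every vertical axis spans the same number of log2 units. Ndufb3, Ndufa12, Atp5k, Ndufb5 and Cox4i1 are lower and Sdhc and Sdhd higher with AAV-CREB-H-ΔTC, by 0.10 to 0.41 in size, while Creb3l3 differs by 0.89.

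Complex III, the cytochrome bc1 complex, had 3 genes above and 5 below 0, a median of -0.024 and no gene with separated groups. Uqcr11, a small subunit, had the lowest value, -0.18 (SE 0.12), and Uqcrc2, a core protein, the highest, 0.08 (SE 0.11). The Rieske iron-sulphur protein Uqcrfs1, which passes electrons towards cytochrome c1, differed by 0.05 (SE 0.12). Uqcrh, the acidic hinge protein, differed by -0.08 (SE 0.10), its pseudogene Uqcrh-ps1 by -0.12 (SE 0.13) and the small subunit Uqcrq by 0.05 (SE 0.13). Cyc1, the cytochrome c1 subunit that the symbol rule does not reach, differed by 0.07 (SE 0.11).

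Complex IV, cytochrome c oxidase, had 9 genes above and 8 below 0 and a median of 0.006. Cox4i1, the common form of a regulatory subunit, was the gene of this complex with separated groups: it read 9.52, 9.50 and 9.57 against 9.48, 9.43 and 9.38. The gap between the groups was narrow, and the difference was -0.10 (SE 0.09, limma adjusted p = 0.892). Its alternative form Cox4i2, known from lung and hypoxic cells, differed by -0.25 (SE 0.13), with overlapping groups. The remaining isoform pairs also gave small differences of either sign. Cox6a1, the common form, differed by 0.12 (SE 0.12), and the muscle form Cox6a2 by 0.03 (SE 0.11). Cox7a2, the common form, differed by -0.05 (SE 0.10), the muscle form Cox7a1 by -0.01 (SE 0.14) and the related supercomplex factor Cox7a2l by -0.12 (SE 0.12). Cox8a differed by 0.06 (SE 0.11) and the muscle form Cox8b by 0.01 (SE 0.10). Cox5a, a subunit of the matrix side, differed by -0.15 (SE 0.16). The common forms (9 genes, median 0.006) and the alternative forms (7 genes, median 0.011) gave like medians, but their signals were unlike. AAV-GFP means ran from 6.28 to 12.47 for the common forms and from 2.67 to 5.23 for the alternative forms. The alternative forms thus read near or below the array medians of 4.98 to 5.01, where differences may be understated.

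Cox7b was the only one of the 9 subunit genes with more than 1 probe set whose probe sets differed in sign. The brighter one read 9.61, 9.40 and 9.52 against 9.36, 9.41 and 9.28, a difference of -0.16 (SE 0.11), with overlap. The dimmer one read 5.05, 5.22 and 5.29 against 5.70, 5.44 and 5.58. On the dimmer probe set all 3 AAV-CREB-H-ΔTC arrays were higher, with a difference of 0.38 (SE 0.12, limma adjusted p = 0.65). No single direction can therefore be given for Cox7b.

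Complex V, ATP synthase, had 10 genes above and 8 below 0 and a median of 0.012. The catalytic head gave some of the narrowest results: Atp5b, the subunit that makes ATP, read 12.13, 12.04 and 12.04 against 12.15, 12.02 and 12.08. The arrays of both groups interleaved, and the difference was 0.01 (SE 0.10, 95% interval -0.21 to 0.24). Atp5e, the small epsilon subunit of the head, had the highest value there, 0.15 (SE 0.14). Atp5k, a membrane subunit at the interface of ATP synthase dimers, read 8.82, 8.78 and 8.73 against 8.65, 8.64 and 8.56. All 3 AAV-CREB-H-ΔTC arrays were lower, with a difference of -0.16 (SE 0.09, limma adjusted p = 0.816). Atp5o, which links the head to the peripheral stalk, differed by 0.14 (SE 0.15).

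Atp5g1, Atp5g2 and Atp5g3 encode the same mature c-ring protein behind different import sequences, and their differences were 0.17 (SE 0.19), 0.07 (SE 0.09) and -0.18 (SE 0.12). None of the probe sets used had separated groups. A dimmer second probe set of Atp5g2 did, with 9.71, 9.69 and 9.75 against 9.83, 9.76 and 9.83. Its difference was 0.09 (SE 0.09, limma adjusted p = 0.9). The pseudogene Atp5c1-ps, in the dimmest 25% of probe sets, read 3.42, 3.10 and 3.49 against 2.98, 2.74 and 3.15. Its groups overlapped, and the difference was -0.38 (SE 0.16, limma adjusted p = 0.724), while that of its parent gene Atp5c1, the gamma subunit, was -0.02 (SE 0.09). Whether the pseudogene probe set also reads the parent transcript was not tested.

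Array by array, the complexes deviated little. AAV-CREB-H-ΔTC replicate 1 had a positive median deviation in every complex (0.002 to 0.138) and replicate 2 a negative one (-0.049 to -0.012). The medians of the other arrays had no sign common to all complexes. The deviation of each gene from its own mean over the 6 arrays, taken as a median over the 80 genes, was 0.031, 0.009 and -0.012 on the AAV-GFP arrays and 0.033, -0.045 and -0.001 on the AAV-CREB-H-ΔTC arrays, so the groups overlapped. AAV-CREB-H-ΔTC replicate 3 was the lowest array for 21 genes and the highest for 17. AAV-CREB-H-ΔTC replicate 2 was the lowest for 18 and the highest for 6. In complex II the array medians were -0.043, -0.006 and -0.091 with AAV-GFP and 0.138, -0.012 and 0.079 with AAV-CREB-H-ΔTC, a mean of -0.047 ± 0.043 (SD, n = 3) against 0.068 ± 0.076 (SD, n = 3). In complex IV they were 0.048, 0.008 and 0.026 with AAV-GFP and 0.002, -0.029 and 0.002 with AAV-CREB-H-ΔTC. The AAV-GFP arrays thus stood above the others by a narrow margin, while the groups overlapped in complexes I, II, III and V. The means of the complex IV array medians differed by -0.035. The median of its gene differences had the other sign, 0.006, with 9 genes above and 8 below 0. For complexes I, III, IV and V the means of the array medians differed by -0.035 to -0.001.

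**Figure D4:**
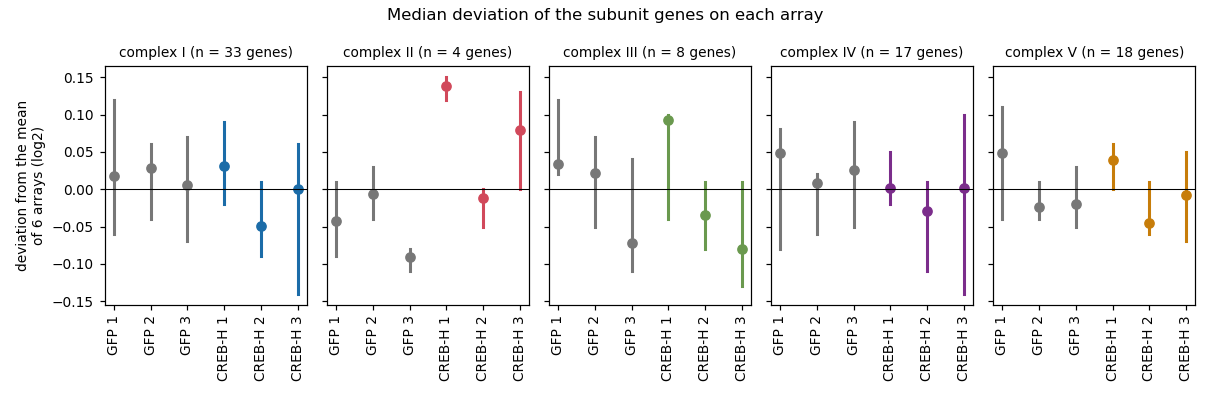
Median deviation (points) of the subunit genes of each complex from their own means over the 6 arrays, on the log2 scale, for each array (horizontal axis), with the quartiles over genes as lines; grey marks AAV-GFP and colour AAV-CREB-H-ΔTC, n = 3 arrays per group. The array medians of complex II run from -0.091 to -0.006 with AAV-GFP and from -0.012 to 0.138 with AAV-CREB-H-ΔTC, and the groups overlap in every complex but complex IV.

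Of the 115 other genes of the pathway measured from 11 lists, 0 passed limma's adjusted test. An unadjusted p below 0.05 was reached upwards by Pdha1, Pdk2 and Ppargc1b and downwards by Gpd2 and Mterf1a, 3 and 2 of the 115, where the same criterion calls 3.29% of all genes higher and 2.43% lower. The 16 assembly factors of complex I had a median of -0.012, with 8 above and 8 below 0. Tmem186, a complex I assembly factor, was the gene there with separated groups (-0.21, SE 0.12), and Ndufaf4, another, differed by -0.28 (SE 0.16). Of 6 complex III factors 5 were above 0 (median 0.077). Ttc19, which clears fragments of the Rieske protein, was the exception with separated lower values (-0.28, SE 0.12, limma adjusted p = 0.736), and Uqcc1, which acts on cytochrome b, differed by 0.16 (SE 0.13). Of 20 complex IV factors 6 were above and 14 below 0 (median -0.055), and 4 had separated groups, 2 upwards and 2 downwards. Over all genes, 6.25% were separated upwards and 6.01% downwards, the background for every separated group named in this paragraph. Pet100 (0.10, SE 0.09) and Cmc1 (0.12, SE 0.09), which act early in oxidase assembly, were higher, and Lrpprc (-0.18, SE 0.10), which stabilises mitochondrial mRNAs, and Cmc2 (-0.17, SE 0.10) were lower. Cox20, a chaperone of the copper subunit COX2, had the highest value of this list, 0.25 (SE 0.12).

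Around complex V, the inhibitor protein Atpif1 differed by 0.26 (SE 0.17) and the assembly factor Atpaf2 by -0.12 (SE 0.13), and the 4 genes of that list had a median of -0.022. The acyl carrier subunit Ndufab1, outside the symbol rule, differed by -0.24 (SE 0.13). Of 10 genes for nucleotide exchange and uncoupling, 5 were above and 5 below 0 (median -0.005); the outer membrane channel Vdac2 differed by 0.16 (SE 0.11) and the mitochondrial creatine kinase Ckmt1 by -0.15 (SE 0.15). The list of 13 subunits encoded in mitochondrial DNA had 0 genes named by a probe set of its own here and was not analysed.

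Among the enzymes that feed electrons into the chain, Gpd2 and Pdha1 had differences larger in size than that of any subunit gene. Of 16 electron carriers and other entry points, 4 were above and 12 below 0 (median -0.061). Gpd2, the glycerol-3-phosphate dehydrogenase of the inner membrane, read 8.45, 8.43 and 8.61 against 8.00, 8.38 and 7.83. All 3 AAV-CREB-H-ΔTC values were lower, with a difference of -0.43 (SE 0.16, limma adjusted p = 0.696). Etfb, which carries electrons from fatty acid oxidation, was also separated and lower (-0.26, SE 0.13, limma adjusted p = 0.788). Over all genes, 6.01% were separated downwards. Of 19 genes of the TCA cycle and pyruvate dehydrogenase, 12 were above and 7 below 0 (median 0.115), with 4 separated upwards and 1 downwards. Pdha1, the catalytic subunit of pyruvate dehydrogenase, read 9.11, 9.06 and 9.09 against 9.73, 9.39 and 9.60. The controls lay within a narrow band and all test livers above it, with a difference of 0.48 (SE 0.12, limma adjusted p = 0.623).

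Pdk2, a kinase that turns pyruvate dehydrogenase off, was separated upwards as well (0.30, SE 0.10, limma adjusted p = 0.686). Its paralogues were not: Pdk1 differed by -0.05 (SE 0.16), and Pdk4 read 12.43, 11.53 and 8.68 against 10.69, 11.62 and 7.09. The Pdk4 arrays of each group spanned more than the groups differed by (-1.08, SE 1.37, limma adjusted p = 0.916), with the lowest values on both replicate 3 arrays, and without AAV-CREB-H-ΔTC replicate 3 the difference was 0.27. Also separated upwards were Idh3g, a subunit of isocitrate dehydrogenase (0.21, SE 0.10), and Dld, the dihydrolipoamide dehydrogenase shared by the keto acid dehydrogenases (0.18, SE 0.11). Cs, the citrate synthase, was separated downwards (-0.22, SE 0.11). None of the genes named from this list passed the adjusted test. The backgrounds for separation were 6.25% upwards and 6.01% downwards. The 4 of 19 upwards were more than that background and the 1 downwards close to it. Whether the list differs from all genes was not tested.

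The known regulators of the subunit genes were measured in the same livers. Of 18 regulators of mitochondrial gene expression 6 were above and 12 below 0, with a median of -0.040. Ppargc1a, the PGC-1α coactivator, read 9.90, 8.94 and 7.77 in the AAV-GFP livers and 9.27, 9.50 and 9.24 in the AAV-CREB-H-ΔTC livers. The control arrays spanned a wider range than the groups differed by, and the difference was 0.47 (SE 0.48, limma adjusted p = 0.903). Without replicate 3 of both groups the difference was -0.03, and between the replicate 3 arrays it was 1.47. Ppargc1b, the related PGC-1β, differed by 0.61 (SE 0.22, limma adjusted p = 0.693), with overlap: 0.84 without replicate 3 of both groups and 0.17 between the replicate 3 arrays. Nrf1 differed by -0.04 (SE 0.10), Esrra, the receptor ERRα that works with PGC-1, by 0.14 (SE 0.11), and Tfam, the mitochondrial DNA packaging factor, by 0.12 (SE 0.12). Gabpa was separated and lower (-0.17, SE 0.10, limma adjusted p = 0.812), as was Mterf1a, a mitochondrial transcription termination factor (-0.38, SE 0.15, limma adjusted p = 0.706). Among all genes 6.01% were separated downwards.

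The values were also taken apart by Y-linked signal. The subunit genes had a median difference of -0.002 over the 4 arrays that lack Y-linked signal and of 0.007 between the 2 that have it. Complex II gave 0.086 and 0.155. Both arrays with Y-linked signal were below all other arrays for 18 of the 80 subunit genes and above them for 10. Of all genes 10.3% were below and 10.8% above. The subunit share below was thus larger than the background, and the share above close to it. The cause was not tested. In a fit with an interaction of vector and Y-linked signal, 0 subunit genes passed the adjusted test and 0 had an unadjusted p below 0.05, against 6.11% of all genes.

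**Figure D5:**
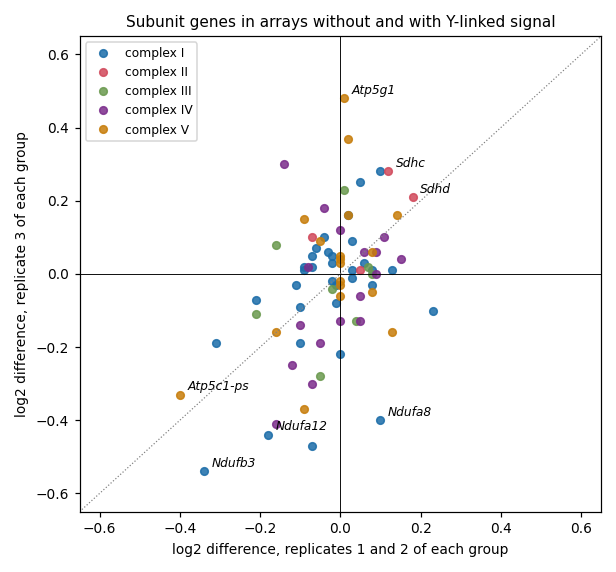
Log2 difference (AAV-CREB-H-ΔTC minus AAV-GFP) of each of the 80 subunit genes on the 4 arrays without Y-linked signal (replicates 1 and 2, horizontal axis) and between the 2 arrays with it (replicate 3, vertical axis, no replicates); colours mark the complexes and the dotted line equality. Ndufb3 (-0.34 and -0.54), Sdhc (0.12 and 0.28) and Sdhd (0.18 and 0.21) keep their sign, and Ndufa8 turns from 0.10 to -0.40.

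Separate values of the pair bear on single genes. Ndufb3 differed by -0.34 on the 4 arrays and by -0.54 between the replicate 3 arrays, and Ndufa12 by -0.18 and -0.44. Sdhd gave 0.18 and 0.21, so it was nearly the same in both. Ndufa8, a membrane arm subunit of the intermembrane space side, read 9.19, 9.29 and 9.80 with AAV-GFP and 9.27, 9.41 and 9.40 with AAV-CREB-H-ΔTC. Its difference was 0.10 on the 4 arrays and -0.40 between the replicate 3 arrays, where the control is the high array.

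Cell type markers were read beside the subunits to check the tissue. The mean log2 signal of 10 hepatocyte markers was 12.55 to 12.68 in both groups, so the ranges coincided. Markers of Kupffer cells (7 of 8 listed) ran from 7.69 to 8.97 with AAV-GFP and from 8.21 to 9.14 with AAV-CREB-H-ΔTC, those of endothelial cells (6 genes) from 8.92 to 9.27 and from 9.09 to 9.27, and those of stellate cells (8 genes) from 7.22 to 7.37 and from 7.14 to 7.62. Markers of muscle (11 genes), the tissue known for Cox6a2, Cox7a1 and Cox8b, ran from 4.73 to 4.79 and from 4.60 to 4.77. Those of brown fat (5 genes) ran from 5.0 to 5.61 and from 4.52 to 5.53. Of the brown fat genes 4 lay in the dimmest 50% of probe sets. The other, Elovl3, had a mean of 9.2 and a difference of -1.88, so this list mean leans on 1 bright gene. Cholangiocyte markers (4 of 5) ran from 4.77 to 4.91 and from 4.86 to 5.01, lymphocyte markers (6 of 7) from 5.37 to 5.50 and from 5.36 to 5.70, white fat markers (3 of 4) from 4.37 to 4.58 and from 4.57 to 4.82, and pancreas markers (4 of 5) from 4.38 to 4.51 and from 4.36 to 4.67. For erythroid cells 0 of 7 markers had a probe set of their own. The part of these shifts in the subunit values was not tested.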

How the data were processed

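Per the submitters' processing notes, the authors used the Transcriptome Analysis Console to make the deposited log2 signals. Its version, the summarisation and the normalization were not given in the sources used here. That the scale is log2 follows from the values themselves (1.42 to 13.9, array medians 4.98 to 5.01), and scanner files, background and scan batches were not analysed here. For all 41345 probe sets, limma 3.58.1 (R 4.3.3, lmFit, then eBayes) compared both groups on these log2 values. Benjamini-Hochberg adjustment and a threshold of 0.05 were used, and the script was tested on simulated data. There the adjusted test recovered 2.0% of 50 probe sets changed by 0.5 on the log2 scale. It recovered 36.0% of 50 changed by 1.0 and 88.0% of 50 changed by 2.0, so small changes would mostly be missed. Names came from the platform annotation: 23521 probe sets had 1 symbol, 1814 several and 16010 none. The 10 subunit probe sets that name several genes were not used. P-values measure the spread between these mice, and the number of arrays limits precision.

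The members and lists were chosen with earlier results of these data known. Named genes were, for complexes I, III, IV and V, the 6 with the lowest p, all of complex II, fixed isoform pairs, the 2 lowest p of each list, Creb3l3 with 5 regulators, and genes whose probe sets disagree in sign. Ndufb5, Ndufs7, Ndufa8, Ndufa10, Ndufa11, Ndufv1, Atp5b, Atp5c1, Pet100, Cmc1, Cmc2, Cs, Idh3g, Dld, Pdk1, Pdk4 and the marker Elovl3 were named after their values were seen. Figures used matplotlib 3.10.9.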

Additional observations from a re-analysis of the deposited data

How the results depend on the processing

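No subunit gene passed the adjusted test under any of the 19 alternatives (lowest adjusted p 0.497), and the medians of the 80 genes and of each complex moved by less than the spread between arrays. Quantile normalization moved the median of all probe sets from -0.015 to 0.005 and centring to 0.003. Subunit genes higher at an unadjusted p below 0.05 numbered 0, and 1 with limma-trend, robust or not. Those lower numbered 2, but 3 with limma-trend, robust or not, and with 1 probe set per gene in the test, 0 on the 4 arrays without Y-linked signal and 1 with array weights, median centring, quantile normalization, structural subunits alone or without the dimmest 25% or 50% of probe sets; with 1 array left out they numbered 0 to 2. Of all probe sets 2 passed, but 0 on those 4 arrays, 1 with a term for Y-linked signal and 0 to 2 with 1 array left out.

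Equal replicate numbers were not taken to pair the arrays. The correlations of same-numbered deviations from the group means were 0.078, 0.127 and 0.33, and not every array correlated best with its own number. The highest of all, 0.33, joined the replicate 3 arrays, which share Y-linked signal. Deviations from means of so few arrays cannot decide whether the arrays are paired. With the replicate number as a block, 0 probe sets passed, and the lowest adjusted p of a subunit gene was 0.565.

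Of the 76 genes named, 57 moved by over 1.5 times under some alternative and 15 turned sign. With 1 array left out, Atp5g1 ran from 0.03 to 0.34, Ndufb11 from -0.41 to -0.09, Gpd2 from -0.58 to -0.31 and Etfb from -0.33 to -0.15. Signs turned as follows. On the 4 arrays Cox6a2 gave -0.04, Cox7a1 0.05, Ndufa8 0.10, Pdk1 0.01 and Ppargc1a -0.03, Cox7a1 gave 0.01 after centring, and Cox7b gave 0.11 as the mean of its probe sets. With 1 array left out, the ranges that crossed 0 were -0.02 to 0.04 for Atp5b, -0.03 to 0.07 for Cox6a2, -0.12 to 0.09 for Cox7a1, -0.02 to 0.12 for Cox8a, -0.05 to 0.04 for Cox8b, -0.18 to 0.12 for Ndufa8, -0.04 to 0.05 for Ndufv1, -0.07 to 0.01 for Nrf1, -0.13 to 0.10 for Pdk1, -2.18 to 0.27 for Pdk4, -0.08 to 0.98 for Ppargc1a, -0.03 to 0.09 for Sdha, -0.07 to 0.06 for Sdhb and -0.01 to 0.13 for Uqcrfs1. The cause was not tested. A fit without replicate 3 of 1 group keeps Y-linked signal in the other group alone. Dim probe sets may understate differences, since background could not be examined.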

Other observations

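Among the 10 probe sets that name several genes and were not used for the subunits, log2 differences ran from -0.31 to 0.12, and the lowest adjusted p was 0.751 (limma). In 2 of them the AAV-CREB-H-ΔTC values were all higher than the AAV-GFP values, and in 0 all lower. Both name Cox6c, a subunit of complex IV, with the predicted gene Gm6265, so they are not separate cases. Over all genes, 6.25% were separated upwards and 6.01% downwards. The brighter Cox6c probe set read 11.40, 11.40 and 11.41 in the AAV-GFP livers and 11.55, 11.53 and 11.50 in the AAV-CREB-H-ΔTC livers. Its difference was 0.12 (SE 0.09, limma adjusted p = 0.859). The dimmer gave 0.09 (SE 0.09). Arrays of each group were nearly level with each other on the brighter probe set, and the signals of Cox6c and Gm6265 cannot be told apart there. The probe set of Uqcrb with Gm10767 gave the lowest difference, -0.31 (SE 0.14), with overlapping groups, while the probe set that names Uqcrb alone, a small subunit of complex III, gave -0.03 (SE 0.11).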
